A study of Mus musculus with 3 samples.

Results

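EZH2 regions that lie between protein-coding genes and appeared in both macrophage libraries are described here. They were chosen from the merged EZH2 regions on chromosomes 1 to 19, X and Y by 4 criteria: an interval of the untreated library and an interval of the stimulated library in the region, a width under 5 kb, a midpoint outside every protein-coding gene, and a midpoint more than 2.5 kb from any protein-coding gene end. Of 9785 merged regions, 4027 were shared by both libraries and 358 of these met all criteria. The intervals, and so the measured enrichment in each library, chose the regions, and their presence in both libraries and their widths are therefore no finding.

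EZH2 was profiled by chromatin immunoprecipitation and sequencing in bone marrow-derived macrophages of adult C57BL/6 mice, grown from marrow for 5 days in DMEM with M-CSF conditioned medium. The untreated group (NT) and the group given lipopolysaccharide (LPS), a bacterial ligand of Toll-like receptor 4, for 2 h had 1 EZH2 library each, and 1 input library had no intervals used here. No condition had a replicate, so no difference below has a replicate check and no test was made. The value of a region in a library is the authors' summit value, the highest over its intervals there; its unit and the depth and scaling of the libraries are not given in the sources used here. A lower value in LPS than in NT is therefore not by itself less EZH2, and ratios are read only against those of other regions. The stimulated track is named TLR in the deposited file and was taken as the LPS library, which limits every LPS value below. An EZH2 immunoprecipitation does not measure the macrophage markers that would test the labelled cell type.

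EZH2 is the catalytic subunit of polycomb repressive complex 2 (PRC2), which methylates lysine 27 of histone H3 and helps keep genes silent. In mammals PRC2 is found mostly at CpG islands, stretches of DNA with many CpG dinucleotides, and above all at genes of developmental transcription factors that a cell type does not use. Regions between genes can hold starts of long non-coding RNAs (lncRNAs), host transcripts of microRNAs (miRNAs), or CpG-rich elements with no annotated gene.

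The sequences below are start windows of lncRNAs, from 250 bases before to 50 bases after the annotated start, that lie at 6 of these regions. They are from RefSeq on GRCm38.p6, the assembly of mm10, are written 5′ to 3′ on the strand of the gene, and have each CpG in capitals. They were chosen after the values were seen. The first 3 belong to regions with summit values among the 5 highest in NT, and show that CpG content differed among these start windows. The NT summits lay 976 bp (Malat1), 1770 bp (Gm33655) and 752 bp (Gm31954) from the starts. They are outside the windows, which therefore do not show the sequence at these summits. Malat1 is at chr19:5802623-5802922 on the minus strand, Gm33655 at chr4:114903897-114904196 on the minus strand and Gm31954 at chr11:68400150-68400449 on the plus strand.
Malat1: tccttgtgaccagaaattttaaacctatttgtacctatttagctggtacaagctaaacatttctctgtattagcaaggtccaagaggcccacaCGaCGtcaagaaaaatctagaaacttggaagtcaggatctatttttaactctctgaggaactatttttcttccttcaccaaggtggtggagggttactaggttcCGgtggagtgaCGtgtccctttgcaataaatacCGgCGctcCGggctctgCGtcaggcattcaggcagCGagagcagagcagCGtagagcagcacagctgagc
Gm33655: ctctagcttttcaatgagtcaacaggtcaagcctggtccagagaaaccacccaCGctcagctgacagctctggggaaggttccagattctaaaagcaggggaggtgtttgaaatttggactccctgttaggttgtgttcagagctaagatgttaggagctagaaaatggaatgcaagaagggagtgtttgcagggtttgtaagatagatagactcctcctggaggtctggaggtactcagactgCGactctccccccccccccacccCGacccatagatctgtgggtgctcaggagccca
Gm31954: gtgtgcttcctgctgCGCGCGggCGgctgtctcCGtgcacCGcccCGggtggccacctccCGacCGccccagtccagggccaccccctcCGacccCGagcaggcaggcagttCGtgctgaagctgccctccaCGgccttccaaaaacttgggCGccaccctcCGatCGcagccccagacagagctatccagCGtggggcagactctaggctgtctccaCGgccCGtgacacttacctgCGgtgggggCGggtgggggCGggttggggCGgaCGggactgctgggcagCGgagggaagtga

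The Malat1 window has 10 CpG and an observed over expected CpG ratio of 0.604, the Gm31954 window has 25 CpG and a ratio of 0.661, and the Gm33655 window has 3 CpG and a ratio of 0.149. The ratio compares the number of CpG with the number that the C and G content alone would give. CpG islands are usually set at a ratio of 0.6 and above, but the ratio alone does not make a window an island. The C and G content was 47% in the Malat1 window, 71% in that of Gm31954 and 52% in that of Gm33655. The next 3 windows belong to named lncRNAs whose start lies in a region of lower value: Mir9-3hg, the host transcript of miRNA gene Mir9-3, at chr7:79499776-79500075 on the plus strand, Miat at chr5:112228899-112229198 on the minus strand, and Oip5os1 at chr2:119594046-119594345 on the plus strand.
Mir9-3hg: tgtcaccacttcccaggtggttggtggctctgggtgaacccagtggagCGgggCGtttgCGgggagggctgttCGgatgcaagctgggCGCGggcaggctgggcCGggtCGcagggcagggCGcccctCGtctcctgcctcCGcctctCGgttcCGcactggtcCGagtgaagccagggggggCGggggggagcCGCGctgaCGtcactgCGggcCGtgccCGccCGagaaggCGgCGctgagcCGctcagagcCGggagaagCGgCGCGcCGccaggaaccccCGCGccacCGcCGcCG
Miat: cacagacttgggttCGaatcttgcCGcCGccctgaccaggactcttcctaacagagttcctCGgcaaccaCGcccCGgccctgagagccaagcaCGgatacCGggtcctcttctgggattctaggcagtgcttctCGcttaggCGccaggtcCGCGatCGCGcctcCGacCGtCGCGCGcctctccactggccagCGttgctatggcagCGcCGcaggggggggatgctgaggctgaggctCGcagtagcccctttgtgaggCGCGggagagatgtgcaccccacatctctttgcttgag
Oip5os1: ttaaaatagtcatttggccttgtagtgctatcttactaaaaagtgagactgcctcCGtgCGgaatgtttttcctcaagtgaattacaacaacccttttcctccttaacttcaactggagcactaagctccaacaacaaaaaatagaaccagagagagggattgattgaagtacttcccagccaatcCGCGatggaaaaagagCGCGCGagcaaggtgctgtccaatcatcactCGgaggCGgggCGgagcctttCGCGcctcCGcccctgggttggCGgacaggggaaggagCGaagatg

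These 3 windows have 35, 25 and 15 CpG and ratios of 0.84, 0.807 and 0.801. The mature miRNAs below are 1 arm each of Mir9-1, Mir193a, Mir193b and Mir203, whose genes lie inside their regions; the other arms and miRNAs there are not printed. They show a mature miRNA encoded at more than 1 locus and a seed shared by different genes, and were chosen after the values were seen. The seed, bases 2 to 8, by which a miRNA pairs with its targets, is in capitals.
miR-9-5p: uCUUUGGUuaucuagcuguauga
miR-193a-3p: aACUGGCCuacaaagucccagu
miR-193b-3p: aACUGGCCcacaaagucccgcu
miR-203-3p: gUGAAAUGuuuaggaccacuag

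miR-9-5p is encoded at both Mir9-1 and Mir9-3, and miR-193a-3p and miR-193b-3p, from genes on different chromosomes, share 1 seed.

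The 358 regions had a median width of 2041.5 bp (quartiles 1497.5 and 2775.5, range 489 to 4655). Their summit values in NT ranged from 13 to 226 with a median of 28, and in LPS from 8 to 100 with a median of 14. Shared regions under 5 kb at gene ends (n = 2798) had higher medians of 35 in NT and 17 in LPS, at a similar median width of 2024 bp, and those inside gene bodies (n = 524) had medians of 33 and 16. In NT, 81 of the 358 (22.6%) were at 20 or below, against 224 of 2798 (8.01%) at gene ends, and 23 (6.42%) were over 60, against 401 (14.3%). Values went up with width: the 90 regions under 1500 bp had a median NT value of 22, the 154 of middle width 27 and the 114 of at least 2500 bp 37.5.

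The ratio of LPS to NT summit value had a median of 0.525 between genes (quartiles 0.443 and 0.621), 0.492 at gene ends and 0.5 over all shared regions. A ratio of at least 0.75, which is 1.5 times the median over all shared regions, was found in 32 regions between genes (8.94%), where 5.44% of all shared regions reached it. A ratio of at most 0.333 was found in 12 (3.35%), where 8.12% of all shared regions did. The rule used this contrast, and nothing is read from these shares. The ratio was lower at higher NT values: it had a median of 0.688 in the 81 regions with NT values up to 20 and of 0.442 in the 23 regions over 60. A region of low NT value is listed as shared only where its LPS value passed the authors' limit, and the lowest LPS value in the list was 7. Within NT classes the medians of regions between genes and at gene ends were close, at 0.688 and 0.647 up to 20, 0.522 and 0.52 up to 30, 0.471 and 0.456 up to 40, 0.49 and 0.465 up to 60, and 0.442 and 0.468 above.

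**Figure D1:**
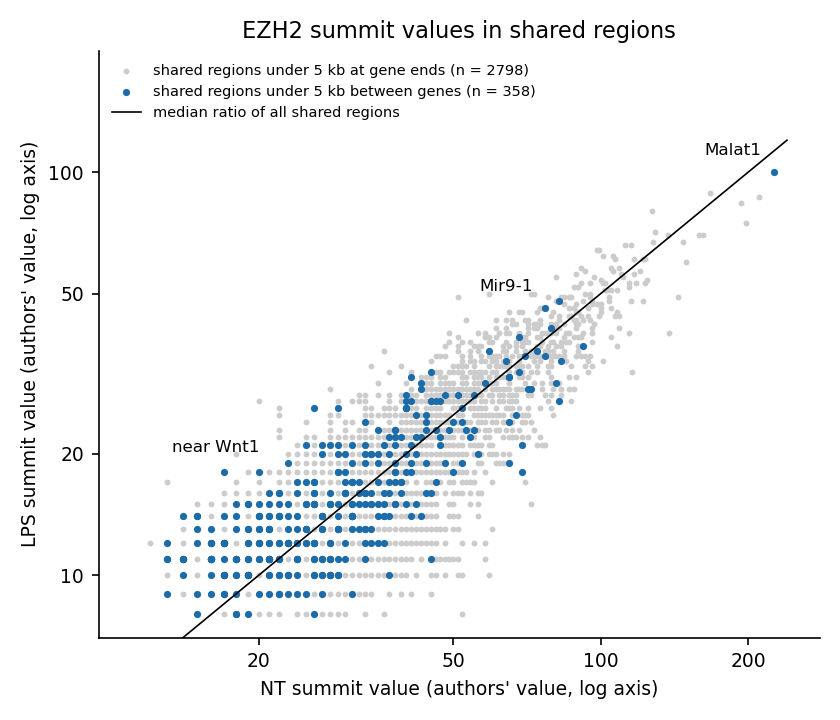
Summit values of shared regions under 5 kb in NT (x axis) and LPS (y axis), both on log axes in the authors' unit; each blue point is a region between genes (n = 358), each grey point stands for 1 or more regions at gene ends (n = 2798), and the line is the median ratio of 0.5. The Malat1 region lies at the upper right with 226 and 100, and the region near Wnt1, with 17 and 18, is the 1 region between genes above a ratio of 1.

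The summits of both libraries lay close together in most regions. The median distance was 128 bp (quartiles 64 and 336), it was 112 bp at gene ends and 128 bp in gene bodies. In 154 regions (43%) the summits were at most 100 bp apart, in 17 they had the same position, and in 16 (4.47%) they were more than 1000 bp apart. NT intervals covered a median of 99.6% of a region and LPS intervals 83.8%, and NT covered more than LPS in 275 of 358.

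The highest region in both libraries was at Malat1, an abundant nuclear lncRNA. It spans chr19:5802172-5804444 and takes in the annotated start of Malat1, which is on the minus strand, and its summit was at the same position in both libraries, 976 bp from the start and upstream of it. Its values of 226 in NT and 100 in LPS were far above those of the next region in NT, which was 92. No input value at this position was used here.

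The next highest region in NT, at Gm33655, 4005 bp from the forkhead gene Foxd2 (chr4:114900382-114904168), had 92 in NT and 37 in LPS. The following had no non-coding gene within 2.5 kb and lay 24648.5 bp from Adgrl1, with 83 and 34. A region at Gm31954, 12788.5 bp from Ntn1, which encodes the axon guidance protein netrin 1 (chr11:68397324-68401905), had 82 and 48. Regions 6002 bp from Nkx2-5, a heart homeobox gene (chr17:26849112-26852868), 16989.5 bp from Lmx1b, a limb and neuron homeobox gene (chr2:33542516-33545435), and 7153.5 bp from the proneural gene Neurog1 (chr13:56257784-56260883) had NT values of 79, 77 and 74 and LPS values of 41, 35 and 36. These 3 had ratios of 0.519, 0.455 and 0.486, each near the median of all shared regions. The other regions among the 10 highest in NT were near LOC102637806 (82 in NT and 27 in LPS) and Chd2 (81 and 30), both with no non-coding gene within 2.5 kb, and at Mir9-1. The Chd2 region was narrow, 1400 bp, and 76750.5 bp from the gene. The 10 highest in LPS also held regions near Foxd1 (68 and 39), Vax2 (59 and 36) and Scrt2 (70 and 35), all genes of transcription factors.

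Among these regions, 185 (51.7%, 95% Wilson interval 46.5 to 56.8%) overlapped a non-coding gene or pseudogene of the RefSeq table or lay within 2.5 kb of its ends. The interval covers counting error only, and neighbouring regions are not independent. At gene ends the share was 26.3% and in gene bodies 23.7%, and 19.4% of windows of 2 kb placed every 1 kb between genes had such a gene. These windows lay farther from genes, at a median of 99225 bp from the nearest gene end, against 11910.8 bp for the shared regions between genes. The share at like distances was not tested, so nothing is read from 51.7% against 19.4%. Regions between genes found in NT alone (n = 398) had a share of 55.5%, so nearness to a non-coding gene did not separate shared regions from these. Summit values were alike with and without a non-coding gene, with NT medians of 28 and 27 and an LPS median of 14 in each class. LncRNA genes were at 155 regions, miRNA genes at 7, tRNA genes at 6, rRNA genes at 3, and pseudogenes or transcribed pseudogenes at 15 and 7.

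Of 158 lncRNA genes at these regions, 110 had a RefSeq start window, and 55 had an annotated start inside a region. These 55 genes had 95 such starts, which fell in 54 regions, 15.1% of the 358, where 14.3% of NT-alone regions between genes held one. Over the 55 genes, the NT summit was a median of 496 bp from the start (20 to 1998 bp) and the LPS summit 521 bp (21 to 2058 bp). For each gene the start window with most CpG was used. Gm32817 and Gm53058 have the same window and count as separate genes. The median CpG ratio was 0.582 in the 55 genes, where it was 0.236 in 8667 lncRNA genes whose starts are in no merged region, 0.622 in 60 lncRNA genes with a start in NT-alone regions between genes, and 0.788 in 1857 protein-coding genes with a start in shared regions at gene ends. These genes had 95 windows for 55 genes, against 10491 for 8667 in no region, so this choice favours them; with the window of fewest CpG the medians were 0.563, 0.213 in no region and 0.558 in NT-alone regions. A ratio of 0.6 or above was found in 24 of the 55 (43.6%), in 51.7% of the genes in NT-alone regions, in 9.16% of the lncRNA genes in no region and in 80.4% of the protein-coding genes at shared regions. The range was wide, from 0.0513 to 1.06, and the windows of Gm33655 and Gm31954 printed above stand on either side of 0.6.

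The motifs CGCG and GAGAG were searched on both strands of the same windows. CGCG was in 54.5% of the 55 windows, in 70% of those in NT-alone regions, in 12.7% of those of lncRNA genes in no region, in 18.9% of all lncRNA genes and in 83.6% of the protein-coding windows at shared regions. CGCG holds 2 overlapping CpG, and its share moves with CpG content. GAGAG was in 69.1% of the 55 windows, in 60% of those in NT-alone regions, in 61.8% of those in no region and in 62% of all lncRNA windows. A match is a description of the letters and not of a bound site.

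**Figure D2:**
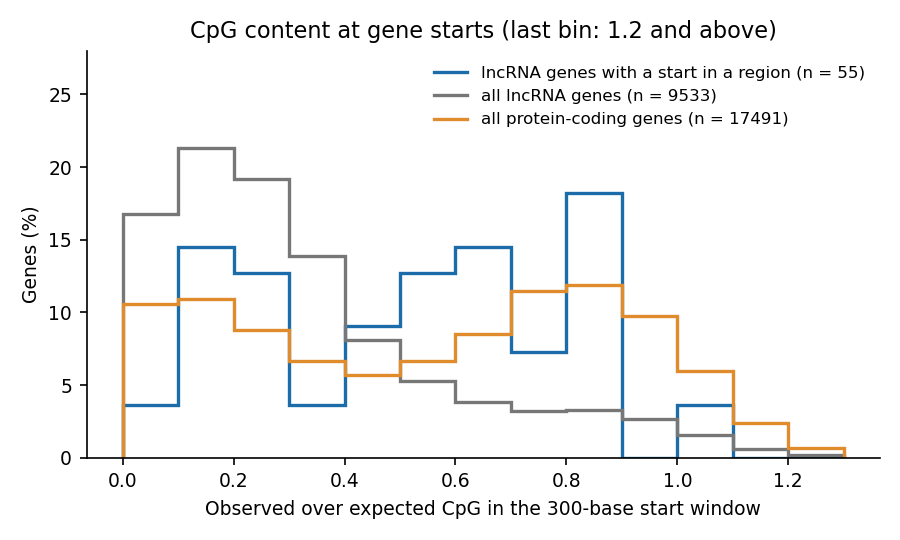
Share of genes (y axis, %) by observed over expected CpG ratio in the 300-base start window (x axis, bins of 0.1), for the 55 lncRNA genes with a start in a region between genes, all 9533 lncRNA genes and all 17491 protein-coding genes with a window. The 55 genes have a group at 0.1 to 0.3 and a larger one from 0.4 to 0.9, whereas most lncRNA genes lie below 0.4.

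LncRNAs with known roles beside developmental genes were among the members. Fendrr, which is transcribed away from Foxf1 and is needed in heart and body wall development, had a region of 44 in NT and 24 in LPS (chr8:121072210-121076795). Hotair, transcribed from the Hoxc cluster and known for its link to PRC2, had a region of 41 and 19 that overlapped 1 end of its gene (chr15:102942790-102944279). A second region, 1473 bp from the gene, had 19 and 12. Vax2os, opposite the eye gene Vax2, had 2 regions, with NT values of 59 and 34 and LPS values of 36 and 20. Pantr1 and Pantr2, beside the neural gene Pou3f3, had 30 in NT and 16 in LPS for Pantr1, and 26 and 21 in NT and 16 and 11 in LPS for Pantr2. Antisense or overlapping transcripts of Six3, Sox1, Sox2, Wt1 and Pax6, which are Six3os1, Sox1ot, Sox2ot, Wt1os and Pax6os1, had NT values of 30, 27, 26, 25 and 17. Their LPS values were 12, 13, 10, 13 and 14. Pax6os1 was lowest of the 5 in NT and highest in LPS, but the LPS values are close together and have no replicate. Miat had 43 and 22, a ratio of 0.512, and Oip5os1 had 31 and 9, a ratio of 0.29, among the lowest. ChIP-seq intervals carry no strand, so a region where genes overlap cannot be given to 1 of them.

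Of the 7 regions at miRNA genes, Mir9-1 (chr3:88212941-88216909) had the highest values, 77 in NT and 46 in LPS. miR-9 is a miRNA of the nervous system. The Mir9-3 gene is 1876 bp from the region that holds the start of its host transcript Mir9-3hg, which had 44 and 23 (chr7:79498734-79503388), and lies inside a shared region of 6737 bp that is too wide for the rule and had 66 and 32. The other Mir9 gene, Mir9-2, was 5274 bp from the nearest region of any list, and lies in the span of the lncRNA C130071C03Rik, which carried 3 of these regions, with NT values of 28, 21 and 53 and LPS values of 21, 11 and 23. Mir9-1 thus lies inside a region between genes and Mir9-3 inside a wider shared region, whereas Mir9-2 lies inside no listed region. The share of all miRNA genes or host transcripts with a shared region was not computed, so nothing is read from the 3 together. The mature miR-9-5p, printed above, is the same from Mir9-1 and Mir9-3.

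Mir193b (chr16:13447710-13449728) had 44 in NT and 19 in LPS, and Mir193a (chr11:79710719-79712581) had 36 and 21. The shared seed was looked for only among miRNAs at these regions, and the rule made every region a shared one, so their joint presence here is no finding. Mir203 (chr12:112130648-112132197), whose miRNA is abundant in skin, had 32 and 17. Mir130a, with 22 and 14, lies outside the region, its mature arms 570 and 609 bp away, and Mir1a-1, whose miRNA is of muscle, had 16 and 11 in a region 2003 bp from the gene. The 5 regions at Mir9-1, Mir9-3, Mir193b, Mir193a and Mir203 were at or above the median NT value of the 358, and the other 2 were below it.

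The nearest protein-coding gene was on a list of developmental transcription factors or signalling genes for 130 of 358 regions (36.3%, 95% Wilson interval 31.5 to 41.4%). The lists hold 351 genes found in the gene table. They were written with earlier results of these data known, so the shares here and by distance are a description and no test. Of 1576715 positions placed every 1 kb between genes, 3.72% had such a nearest gene, and of the 398 NT-alone regions between genes, whose median NT value was 19, 18.6%. At gene ends the share was 7.43% for shared regions under 5 kb and it was 13.8% over all shared regions, wide ones included. Transcription factor genes accounted for 127 of the 130, and signalling genes for 3: Wnt7b (49 in NT and 23 in LPS), Bmp7 (27 and 13) and Wnt1 (17 and 18). By gene rather than by region, 89 of 280 different nearest genes (31.8%) were on the lists.

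The share went with distance. Among the 70 regions up to 5 kb from the nearest gene end, 45 (64.3%) had a developmental neighbour, where 32% of NT-alone regions and 2.07% of positions did. It was 51.1% from 5 to 10 kb (47 of 92), 19.4% from 10 to 50 kb (27 of 139), 22.2% from 50 to 100 kb (8 of 36) and 14.3% beyond (3 of 21). In all 5 classes shared regions had the highest share, NT-alone regions the next and positions the lowest. In the far classes this rests on few regions. From 50 to 100 kb it was 8 of 36 shared against 6 of 52 NT-alone, and beyond 100 kb 3 of 21 against 1 of 19. The 130 did not have higher values than the rest: their NT median was 26 and that of the other 228 regions 29. Genes such as Ntn1, Scrt2 and Eya1 are not on the lists and count with the other 228. This comparison is therefore of listed with unlisted genes.

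**Figure D3:**
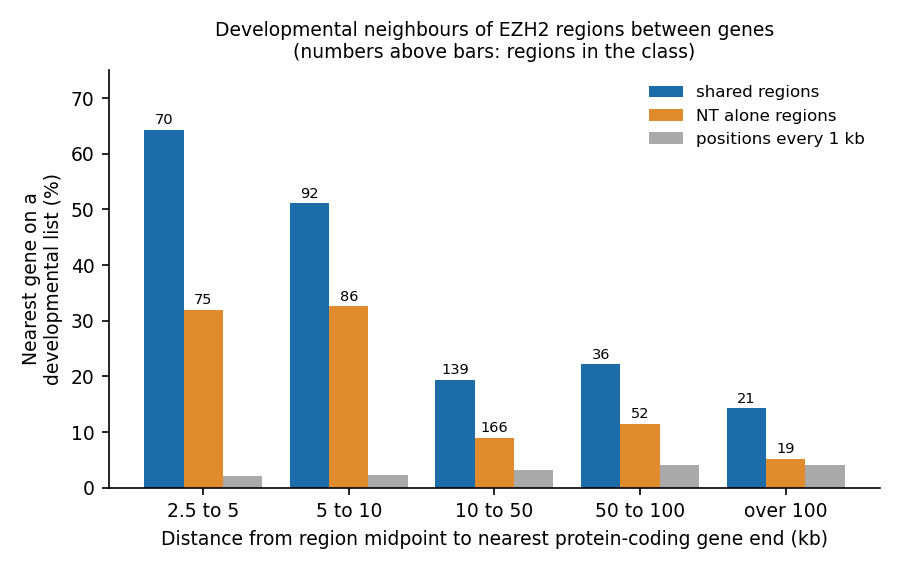
Share with a nearest gene on a developmental list (y axis, %), by distance to the nearest protein-coding gene end (x axis, kb), for the 358 shared regions, the 398 NT-alone regions and positions every 1 kb between genes; the numbers over the bars are the regions in each class. The blue bars start at 64.3% below 5 kb and end at 14.3% beyond 100 kb, and the grey bars stay between 2.07% and 4.17%.

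Most regions were next to a gene with a shared region of its own. In 226 of 358 (63.1%) the nearest gene had another shared region within 2.5 kb of its ends, as 3447 of 21883 protein-coding genes (15.8%) and 293 of 351 developmental genes (83.5%) did, and for NT-alone regions the share was 45.2%. All 89 developmental genes nearest to a region had one. In those 226, the region between genes was lower in NT than the highest region at the gene in 192, equal in 1 and higher in 33. The medians were 27 between genes and 59 at the genes in NT, and 14 and 31.5 in LPS, where 188 of the 226 were lower. This sets a region under 5 kb against the highest of all shared regions at the gene, of any width, which favours the gene. With regions at the gene also held under 5 kb, a choice made after the data were seen, 161 could be compared, of which 121 were lower in NT, 4 equal and 36 higher, with medians of 28 and 46; in LPS 116 were lower, with medians of 14 and 21. The highest of several regions was still taken at the gene. Of the 130 with a developmental neighbour, 122 were below the gene in NT and 123 in LPS, regions of any width included. Examples are Uncx, a homeobox gene with 132 at its ends and 3 regions with 22 to 41 in NT, and Sp9, with 253 at its ends and 2 regions of 13 and 25. The exceptions include Meis1, with 37 at its ends and 3 regions of 38 to 67 in NT, and Nkx2-5, with 72 at its ends and 79 in the region 6002 bp away. The median gap to the next shared region of any kind was 7446.5 bp, and 43526.5 bp for NT-alone regions. The strand of the neighbour was known for 276 regions, of which 140 (50.7%) lay beyond its 5′ end and 136 beyond its 3′ end.

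Several developmental genes had more than 1 region. Of the 89 genes, 59 had 1 region, 22 had 2, 6 had 3, Nr2f1 had 4 and Pax2 had 5. Members close to each other were grouped into runs, where consecutive regions were under 50 kb apart: 200 regions stood alone, and the other 158 (44.1%) formed 61 runs, of which 9 had at least 4 members. The longest had 8 regions over 85 kb on chromosome 11 (start 96171820), from beside Ttll6 to Hoxb13 and Hoxb9, homeobox genes of the posterior body. In chromosome order their NT values were 21, 13, 33, 27, 25, 44, 39 and 17 and their LPS values 11, 9, 16, 9, 12, 25, 17 and 11. The sixth, 6952 bp from Hoxb13, was the highest in both libraries.

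In the Hoxc cluster on chromosome 15, a run of 5 regions over 46.1 kb, from beside Hoxc12 to beside Hoxc9, had NT values of 41, 19, 18, 26 and 15 and LPS values of 19, 12, 13, 16 and 13. The first 2 are those at Hotair. A second run on the same chromosome, from beside Hoxc4 to Cbx5 over 126.4 kb, had 32, 38, 35, 18 and 23 in NT and 16, 21, 19, 15 and 12 in LPS. Across the 14 regions whose nearest gene was a Hox gene, NT values were 15 to 44 (median 29) and LPS values 9 to 25 (median 15.5). At Pax2, a kidney and eye transcription factor gene, 5 regions over 74.3 kb on chromosome 19 had NT values of 37, 24, 23, 31 and 30 and LPS values of 14, 11, 19, 13 and 17, where the ends of the gene had 66 in NT. The region nearest Pax2, 4628 bp away, had 30 and 17. A run of 4 regions on chromosome 13 lay 49061 to 64271.5 bp from Mef2c, which had no shared region at its ends. The 4 had 21, 28, 21 and 53 in NT and 11, 21, 11 and 23 in LPS, and 3 of them are those at C130071C03Rik.

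**Figure D4:**
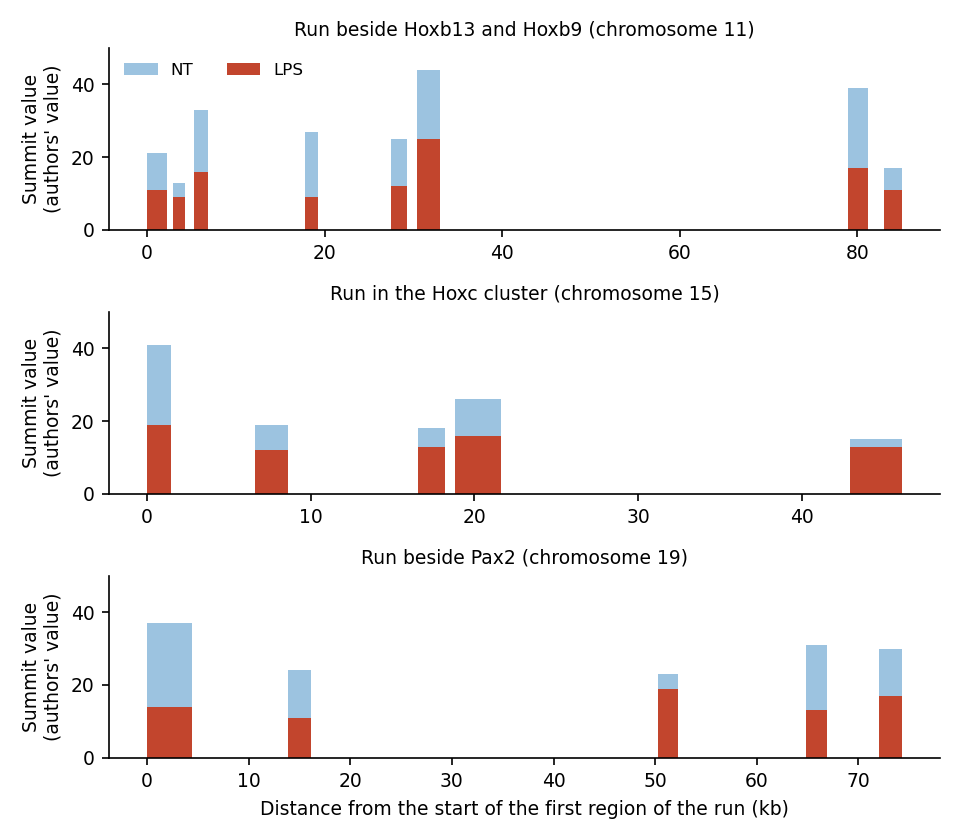
NT (pale) and LPS (red, drawn in front) summit values in the authors' unit (y axis) against distance from the start of the first region (x axis, kb), for 3 runs of neighbouring regions; bar width is the region's width. In the 3 runs every LPS value is below its NT value, and the values differ from region to region in both libraries.

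Chromosome 13 held 35 of these regions, 20.2% of its 173 shared regions, against 4.56% to 12.5% on the other autosomes. Its members included 4 near the nuclear receptor gene Nr2f1, with NT values of 21 to 35, 2 near Neurog1 (46 and 74), 2 near Foxd1 (34 and 68) and the 4 in the Mef2c run. Of the 35, 15 (42.9%) had a developmental nearest gene, and 17 were at a lncRNA gene.

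A gene of the macrophage identity list was the nearest at 4 regions (1.12%, with 0.199% over all shared regions), and one of the LPS response list at 2 (0.559%, with 0.944%). Among NT-alone regions between genes the numbers were 3 (0.754%) and 6 (1.51%). These counts are small, and nothing is read from the shares. The lists hold 33 and 80 genes of the gene table, and Irf8 is on both. A region 35073.5 bp from Socs3, an inhibitor of cytokine signalling induced by LPS, had 26 in NT and 11 in LPS, and 1 at 126946 bp from Irf8, a macrophage transcription factor gene, had 20 and 13. The Fc receptor gene Fcgr3 had a region of 47 and 22 at 20116 bp. Regions 49756.5 bp and 39737 bp from Fcgr1 had 21 and 16 in NT and 13 and 12 in LPS, and both of these lie at tRNA genes.

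Some members lie at or near genes with several like copies, where reads could be assigned to more than 1, and their values are uncertain. These include 3 regions at 5S rRNA genes on chromosome 8 (29, 45 and 16 in NT; 13, 32 and 12 in LPS), 6 at tRNA genes and 5 near or in the MHC on chromosome 17, near H2-Q2, H2-T-ps and H2-T3, with NT values of 19 to 36. The 5S region with 45 and 32 had a ratio of 0.711, against 0.448 for the one with 29 and 13. The sources used here do not state how such reads were treated, and the repeat content of these regions was not measured.

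Far from genes, 21 regions lay over 100 kb from any protein-coding gene end. The farthest were 2 neighbouring regions near F2rl3 on chromosome 8, 590053.5 and 588666.5 bp away, with 33 and 37 in NT and 20 and 16 in LPS. A region 195591.5 bp from Eya1, a developmental phosphatase gene, had 69 and 18, a ratio of 0.261. In the upper part of the regions by mean of both values, from its median up, the lowest ratios were near Rbx1 (45 and 11, 0.244), Eya1, Psd2 (37 and 10, 0.27), Nr2e1 (65 and 19, 0.292), Skida1 (69 and 21, 0.304) and Melk (43 and 14, 0.326). The highest were near Erfl (26 and 26, a ratio of 1), Faim (29 and 26, 0.897), Ebf1, a B cell factor gene (25 and 21, 0.84), Pax2 (23 and 19, 0.826), Abt1 at a tRNA gene (27 and 21, 0.778) and Uncx (41 and 31, 0.756). With 1 library per condition these extremes have no error.

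At the limits of the rule, the widest regions kept were 4655, 4622 and 4586 bp (NT values 44, 40 and 44), and the narrowest left out were 5082, 5085 and 5498 bp (42, 77 and 59), near Sox14, Onecut1 and Rhcg. The nearest to a gene end that were kept lay 2531.5 bp from Tbx3 (14 in NT), 2612.5 bp from Nrarp (41) and 2625 bp from Ccnd1 (27), and the farthest left out lay 2438.5 bp from Bsx (27), 2350 bp from Ier5l (16) and 2303 bp from Rhbg (55).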

How the data were processed

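EZH2 ChIP-seq intervals and summits of 1 untreated and 1 LPS library were used. The deposited score of each summit is the authors' summit value, a whole number of unit not given in the sources used here; per the submitters' processing notes BWA, SICER and mm10 were used, with no role given; SICER joins windows into broad islands, so a region can take in several elements. The deposited track says TLR where the labels say LPS, and was assigned to the LPS sample; this limits every LPS value. BED positions are printed 1-based. Genes and start windows were taken from RefSeq (GRCm38.p6). Regions were read with Python 3.11.15 and pandas 2.3.3. The assignment of intervals, values, widths, places and non-coding genes to regions, and the choice of members, were tested on simulated regions with known answers. The other steps were not tested in this way. Depth is unknown, so values have no counting error. The rule for named regions takes the highest values, the highest and lowest ratios, the farthest, those at miRNA, lncRNA and listed genes, the 6 longest runs and those at the limits of the rule; others, such as Sp9, Meis1, Nr2f1, MHC and 5S regions, were chosen after their values were seen. The members and lists were chosen with earlier results of these data known. Alternatives changed the distances, widths, interval lists and values. Input intervals were not used here. Region sequence was not analysed here, as no genome was used.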

Additional observations from a re-analysis of the deposited data

How the results depend on the processing

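Values were computed again 122 times, and 102 were near the original and 20 were not; near means within 1.5 times for the number of regions, and inside the 95% interval of the reported value for medians and shares. With more than 5 kb from gene ends the median distance was 18363 bp and the developmental share 29.5%; with more than 10 kb, 196 regions had a median distance of 31512.5 bp and a share of 19.4%. With widths under 3000 bp the median width was 1856 bp and the median LPS value 13. When each library was limited to its upper part of intervals, from its median value up, 125 regions had a median width of 2617 bp, NT value 41, LPS value 21, and 1.6% at a ratio of 1.5 times the median of all regions or more. When only as many NT intervals as LPS intervals were kept, the highest first, 185 regions had a median width of 2343 bp, NT value 37, LPS value 18, ratio 0.471, 3.78% with such a high ratio and a developmental share of 31.4%. Each of these settings leaves out regions by construction. Leaving out regions at tRNA, rRNA or pseudogenes, and keeping 1 region per nearest gene, both added after the data were seen, gave developmental shares of 38.8% and 31.8%. With regions at the nearest gene held under 5 kb, the share of regions below the gene in NT was 75.2%, where it was 85% with any width. No paired analysis was possible because there was 1 library per condition. Without replicates, depth and scaling, a difference between LPS and NT cannot be told apart from a difference in depth or library.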
